A study of Mus musculus with 12 samples.

Results

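The non-myocyte marker genes of the heart are 36 genes typical of the cells that lie around cardiomyocytes (CMs), of which 17 mark endothelial cells, 8 fibroblasts, 6 mural cells and 5 immune cells. They were chosen by name, with earlier results of these data known, and make up 36 of the 21938 protein-coding genes of the GENCODE M21 annotation (GRCm38). Each gene was read through a window made of its body and 5000 bp on each side. H3K27ac regions overlapping these windows numbered 140 of the 53754 regions in control CMs and 98 of the 45521 regions in knockout (KO) CMs.

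The study asked how loss of the corepressor RIP140, the product of *Nrip1*, alters the H3K27ac pattern of CMs. It used CUT&RUN, in which an antibody brings a nuclease (pA-MNase) to chromatin and the DNA that the nuclease releases is sequenced. Control mice were *Nrip1* f/f Cre-, and KO mice (csNrip1-/-) were *Nrip1* f/f Cre+ littermates, so both carried the floxed allele and the KO mice alone carried Cre under the Nkx2.5 promoter. The mice were male and 10 to 12 weeks old, their CMs were freed by Langendorff perfusion and enriched by spinning at low speed, and each experiment took 200000 CMs, with 3 H3K27ac and 3 IgG replicates per genotype. Nkx2.5 is active in cardiac progenitors before CMs mature, so this Cre is not limited to adult CMs, and the region lists do not show in which cells it acted. Each genotype is represented by 1 list of regions merged over its replicates, with no read counts and no values per replicate. The depth is therefore unknown, no replicate error can be given, and each comparison here describes 2 lists.

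H3K27ac, an acetylated form of histone H3, sits at promoters and enhancers that are in use, so a gene that is silent in a cell type usually carries little of it. In the heart, endothelial cells line vessels and chambers, fibroblasts build the collagen matrix, mural cells (pericytes and smooth muscle cells) wrap the vessels, and macrophages are the most common resident immune cells. CMs isolated in bulk can carry such cells with them, and in a pool of nuclei fewer cells of a type and less of the mark per cell cannot be told apart.

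The lists were first checked against their labels. The last exon of *Nrip1*, which holds its coding sequence, was covered over 2904 of its 7616 bp in the control list and over 0 bp in the KO list. All 18 CM genes examined, among them those for sarcomere and calcium-handling proteins, had a region at their own start in both lists. A start here means the stretch from 1000 bp upstream to 100 bp downstream of any annotated transcript start. The median share of a CM gene window under regions was 41.8% in control and 56.3% in KO CMs, and the highest was that of *Pln*, the gene for phospholamban, at 100% in both.

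Beside this CM signal, the endothelial markers carried H3K27ac regions in both genotypes, while most fibroblast and immune markers carried none and mural markers lay near the level of all genes. At least 1 region lay in the window of 26 of the 36 members in the control list, where 62.4% of all protein-coding genes had one. In the KO list this held for 24 of the 36 members, beside 62.6% of all genes. All 17 endothelial genes had regions in both lists, against 3 and then 1 of the 8 fibroblast genes and 2 of the 5 immune genes in each list. For mural genes it was 4 of 6 in each list, near the share of all genes, and the median covered share of a mural window was 7.41% in control and 6.02% in KO CMs, beside 5.05% and 5.56% over all protein-coding genes.

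**Figure D1:**
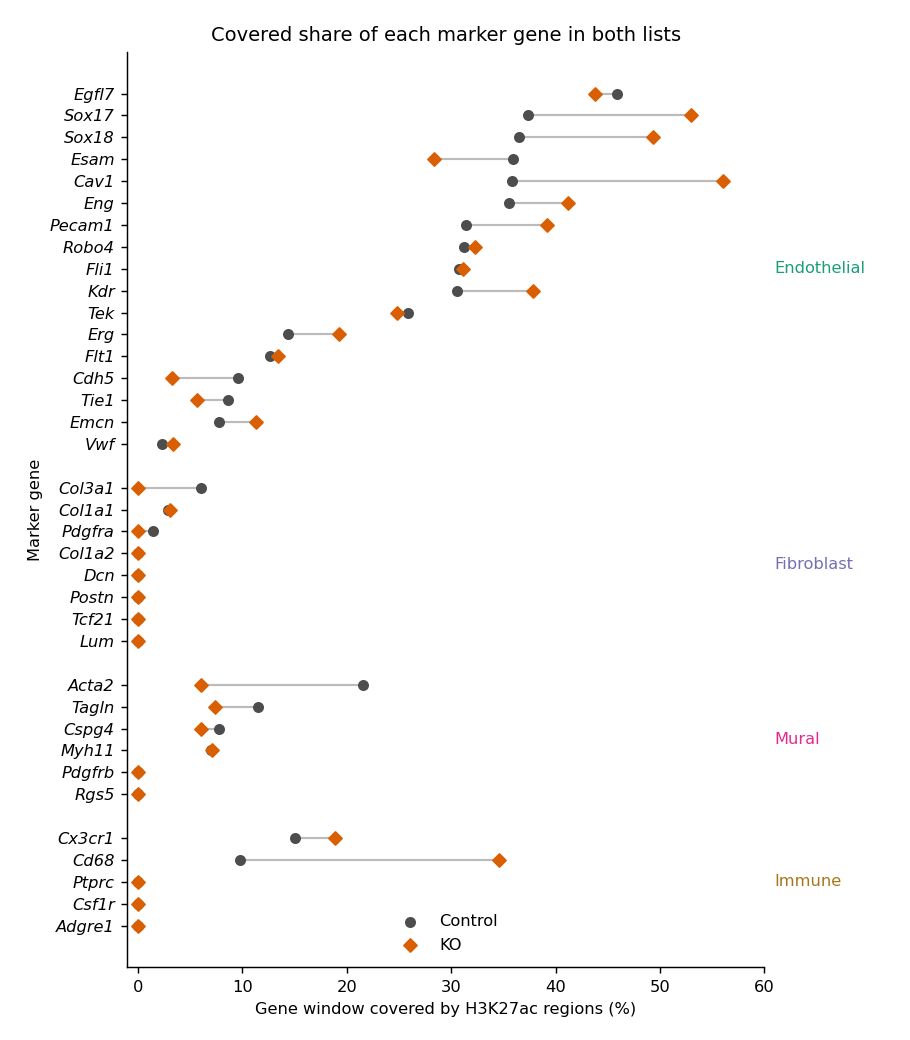
Share of each gene window (%) covered by H3K27ac regions, with circles for control and diamonds for KO CMs, by cell class. Endothelial genes lie between 2.28% and 56.1%, while 5 of 8 fibroblast, 2 of 6 mural and 3 of 5 immune genes lie at 0% in both lists.

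The starts of the genes were covered mostly at endothelial markers. A region lay at the start of 22 members (61.1%) in control CMs, beside 50.2% of all protein-coding genes, and of 19 members (52.8%) in KO CMs, beside 52.3%. Over all 36 members these shares are near the background, with endothelial genes above it, fibroblast and immune genes below it and mural genes at it. Endothelial genes had a region at their start in 17 of 17 cases in control and 16 of 17 in KO CMs, as against 2 and 0 of 8 fibroblast genes, 3 and 3 of 6 mural genes (50%) and 0 and 0 of 5 immune genes. Where the start of the gene record (its most upstream base) was taken in place of any transcript start, the endothelial count was 11 in control and 13 in KO CMs. The endothelial genes without a region at the record start in either list were *Pecam1*, *Cdh5*, *Erg* and *Vwf*, each of which has further annotated starts.

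**Figure D2:**
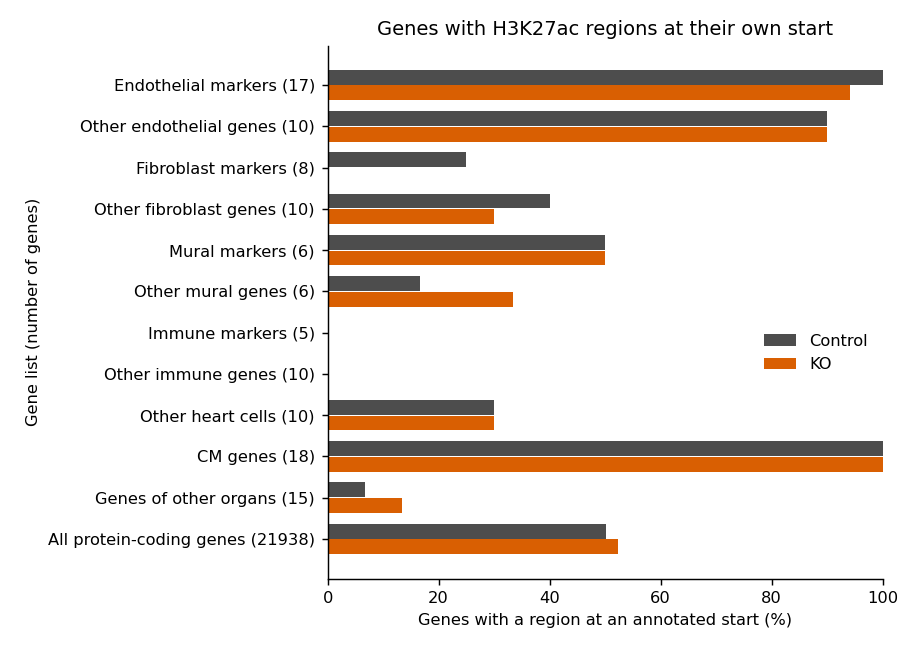
Share of genes (%) with an H3K27ac region at an annotated start, for the 4 marker classes, further genes of the same classes, CM genes, genes of other organs and all protein-coding genes, with 1 bar per list. CM genes reach 100% in both lists and endothelial markers 100% and 94.1%, while immune markers are at 0%.

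The lists differed in the presence of a start region at 3 members. *Cdh5*, *Col3a1* and *Pdgfra* had a start region in the control list only, a pattern found in 2.88% of all protein-coding genes. A start region in the KO list only was found at 0 of the 36 members, beside 4.93% of all genes. *Col3a1* and *Pdgfra* had regions in control CMs and none anywhere in their windows in KO CMs, which was so for 3.24% of all genes. With 36 members, counts of 3, 0 and 2 are each within a few genes of these shares.

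Plotted by distance, endothelial cover was highest within a few kb of the start. The base at the record start itself was covered in 58.8% of endothelial genes in control and 70.6% in KO CMs, as against 88.9% of CM genes in each list. At 1000 bp downstream the order of the lists was the reverse for endothelial genes, with 70.6% in control and 64.7% in KO CMs. At 10000 bp upstream 23.5% of endothelial genes were covered in each list. No immune gene was covered at its start, and 1 of 8 fibroblast genes, *Col3a1*, was covered there in control CMs alone.

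**Figure D3:**
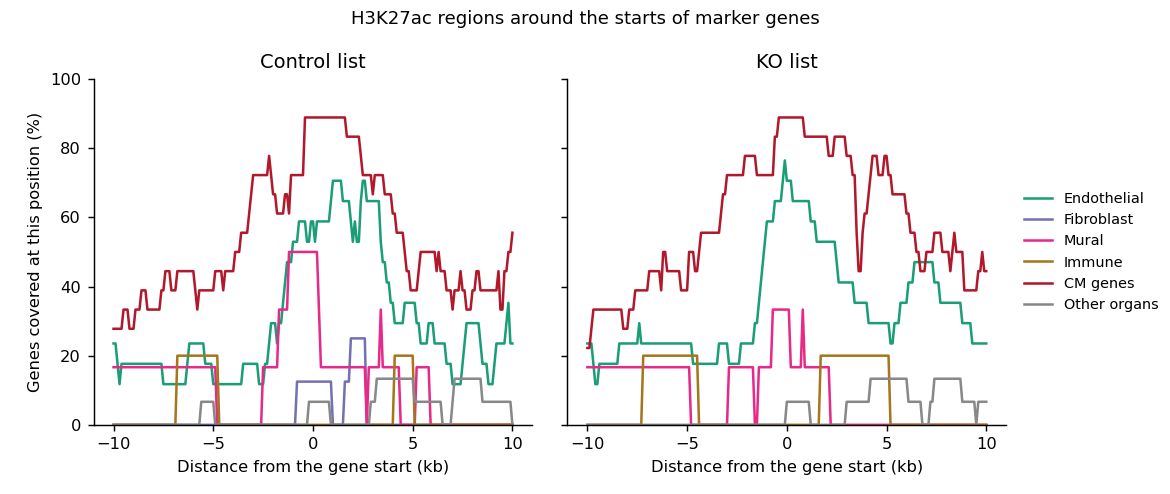
Share of genes (%) covered by an H3K27ac region at each distance (kb) from the start of the gene record, in the control list (left) and the KO list (right), with 1 line per gene class. Endothelial genes are at 58.8% and 70.6% at the start itself and at 70.6% and 64.7% at 1000 bp downstream, and CM genes at 88.9% in both lists at the start.

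Summed over the 17 endothelial genes, regions covered 271329 bp in control CMs and 310763 bp in KO CMs, a log2 ratio of 0.20. Cover was longer in KO CMs at 12 of these genes and shorter at 5, with a median log2 ratio of 0.22. Over the 12989 protein-coding genes with regions in both lists, 7549 were longer and 5426 shorter, with a median of 0.08. The 10 other endothelial genes split into 5 and 5, with a median of 0.074 and a summed log2 ratio of 0.12. The 18 CM genes had a median of 0.17 and a summed log2 ratio of 0.27. Longer cover in KO CMs was thus not limited to endothelial genes. Of the endothelial cover, 195128 bp lay in both lists, which was 71.9% of the control and 62.8% of the KO length.

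The smaller classes had few regions, and the ratios of fibroblast and mural genes moved with the settings. Fibroblast genes went from 4496 bp in control to 834 bp in KO CMs, a log2 ratio of -2.43. That ratio rests on a few regions, and it was -0.59 with 20 kb on each side of the gene body and -0.99 with the whole length of each region. Mural genes had 18198 bp in control and 12977 bp in KO CMs, a log2 ratio of -0.49 that was 0.072 with 20 kb on each side and -0.068 with regions at least 1000 bp wide. Immune genes had 27997 bp and 37718 bp (log2 ratio 0.43), all of it at *Cd68* and *Cx3cr1*.

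A 1.5-fold difference in covered length was taken as the threshold for single genes. Among the 24 members with regions in both lists, 2 were at least that much longer in KO CMs, *Cav1* and *Cd68*, beside 16.3% of all such genes. Another 4 were at least that much shorter, *Cdh5*, *Tie1*, *Acta2* and *Tagln*, beside 8.60% of all. These counts moved with the way regions were counted: the 4 shorter genes ranged from 0, with windows of 20 kb on each side, to 5, without regions over other promoters, where the log2 ratio of *Cspg4* went from -0.36 to -0.86, and the 2 longer genes ranged from 1 to 4. With 20 kb on each side the log2 ratio was 0.46 at *Cav1* and -0.077 at *Tagln*. At 10 members below the threshold (*Flt1*, *Tek*, *Egfl7*, *Esam*, *Robo4*, *Sox17*, *Sox18*, *Fli1*, *Vwf* and *Cspg4*) the ratio changed sign under at least 1 alternative, and so it did at *Tie1*, which is past the threshold.

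**Figure D4:**
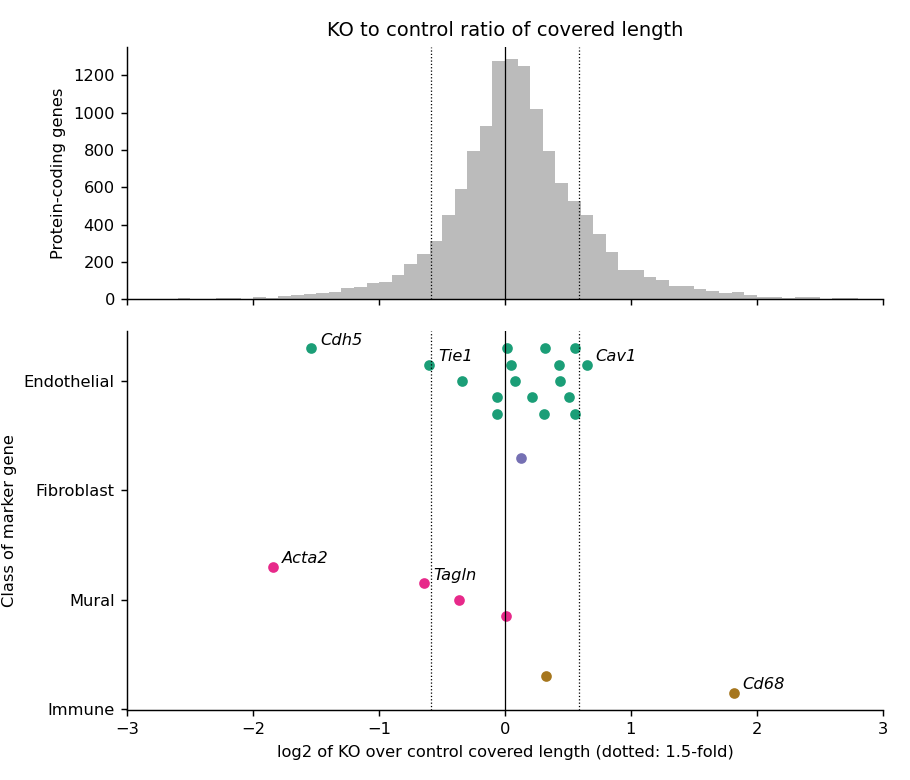
Number of protein-coding genes (top) and marker genes by class (bottom) by log2 of covered length in KO over control CMs, with dotted lines at 1.5-fold. All genes centre on 0.08, and *Cdh5* (-1.54), *Tie1* (-0.60), *Acta2* (-1.85), *Tagln* (-0.64), *Cav1* (0.65) and *Cd68* (1.82) lie past the lines.

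Regions without any overlap in the other list are called control-only or KO-only here. Of the 140 control regions at members, 44 (31.4%, 95% Wilson interval 24.3% to 39.5%) were control-only, beside 29.5% of the whole control list. Of the 98 KO regions, 16 (16.3%, 10.3% to 24.9%) were KO-only, beside 21.5% of the whole KO list. In the windows of all protein-coding genes the shares were 26.95% and 20.7%. Both intervals, which cover counting error only, include these background shares. Endothelial genes held most of them, with 34 of 110 control regions (30.9%) and 14 of 78 KO regions (17.9%) found in 1 list only.

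Like regions found in 1 list only across the genome, these endothelial regions were narrow and mostly merged from few peaks. The median control-only region was 938 bp wide, against 2313 bp for shared control regions, and the median KO-only region 1343 bp, against 3684.5 bp for shared KO regions. Over the whole lists these medians were 1045 bp against 2404 bp and 1279 bp against 2694 bp. The number that closes each region's name was read as the count of merged replicate peaks, a reading that the files do not spell out. By it, 33 of the 34 control-only (97.1%) and 13 of the 14 KO-only regions (92.9%) were merged from 2 peaks, beside 94.3% and 87.8% over the whole lists. Among shared endothelial regions that was so for 49 of 76 in control and 37 of 64 in KO CMs. Of the 34 control-only and 14 KO-only regions, 3 and 2 overlapped a start. Among those that overlapped no start, 25 and 10 lay in introns by the centre of the region. By the same rule, 77 of all 110 control and 51 of all 78 KO regions at endothelial genes were intronic.

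Endothelial genes had fewer and wider regions in KO than in control CMs. The median width was 1656 bp over the 110 control regions and 2650.5 bp over the 78 KO regions. The whole lists differ in the same direction, with medians of 1846 bp and 2291 bp. How much of the longer cover in KO CMs came from regions that fuse several control regions was not tested.

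Among the endothelial surface and junction genes, *Cdh5* stood furthest from equal cover. It encodes VE-cadherin, which holds endothelial cells together. Its window was covered over 5079 bp (9.60%) in control and 1743 bp (3.30%) in KO CMs, the lowest endothelial share in the KO list and 2.91-fold less than in control CMs. Control-only regions lay at chr8:104098952-104099727, chr8:104103629-104105069, chr8:104107352-104108618 and chr8:104110729-104111503, the last of them at an annotated transcript start inside the gene. The KO-only region at chr8:104126608-104128107 lay in an intron, and the widest region was an upstream KO region at chr8:104094193-104096867. The lists had 243 bp in common within the window. The difference shrank with wider settings, since the log2 ratio of -1.54 became -0.34 with 20 kb on each side and -0.62 with whole regions.

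*Cav1* went the other way. It encodes caveolin, which shapes the small membrane pits common in endothelial cells. Regions covered 16146 bp (35.8%) in control and 25300 bp (56.1%) in KO CMs, which made it the endothelial gene with the highest share in the KO list and 1.57-fold longer than in control CMs. None of its 6 control and 4 KO regions was found in 1 list only. Its widest region, chr6:17305153-17320588 in KO CMs, spans the start and reaches over a pair of regions that were separate in control CMs.

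*Egfl7*, which encodes a factor secreted by endothelial cells, had the highest endothelial share in control CMs. Regions covered 10601 bp (45.9%) in control and 10115 bp (43.8%) in KO CMs. A control-only region lay downstream at chr2:26593276-26593973, and the widest region was chr2:26569314-26585128 in KO CMs. *Vwf*, the gene for von Willebrand factor, had the lowest share in control CMs, with 3419 bp (2.28%) against 5018 bp (3.35%) in KO CMs. Its control-only region at chr6:125603021-125605058 and a KO-only region at chr6:125552438-125554114 lay at different inner transcript starts, and a further KO-only region lay at chr6:125548400-125549175. The widest region was chr6:125572109-125574673 in KO CMs. The direction at *Vwf* depended on the window, with a log2 ratio of 0.55 as measured and -0.35 with 20 kb on each side.

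The remaining surface genes had a region at an annotated start in both lists. *Esam*, a junction adhesion molecule, had 7264 bp (35.9%) in control and 5739 bp (28.4%) in KO CMs. Downstream of it, a control-only region at chr9:37540206-37542113 overlapped the promoter of *Vsig2*, a KO-only region lay at chr9:37543294-37544949, and the widest region was chr9:37526441-37532153 in KO CMs. The log2 ratio of *Esam* turned from -0.34 to 0.10 without regions over other promoters, and to 0.017 with the gene body only and 0.021 with 20 kb on each side or whole regions. *Emcn*, which encodes the sialomucin endomucin, had 7812 bp (7.73%) and 11481 bp (11.4%). Its single control-only region was at chr3:137388046-137388568, its KO-only regions were at chr3:137363843-137364972 and chr3:137414457-137417539, and its widest region was chr3:137340021-137344404 in control CMs. *Robo4*, a guidance receptor of endothelial cells, had 7242 bp (31.2%) and 7494 bp (32.3%). Control-only regions of *Robo4* lay at chr9:37404720-37405582 and chr9:37412527-37413316, and the widest region was chr9:37398452-37403582 in KO CMs. With regions under 1000 bp left out, its log2 ratio of 0.05 became 0.94. *Pecam1*, the gene for the adhesion molecule CD31, had no region found in 1 list only and was covered over 31.4% in control and 39.2% in KO CMs.

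The receptors of vascular growth factors were covered in both lists, in part by different regions. *Kdr*, the gene for VEGF receptor 2, had 16989 bp (30.5%) in control and 21047 bp (37.8%) in KO CMs. Its 10 control regions faced 4 in KO CMs, and control-only regions lay at chr5:75951466-75952718, chr5:75957049-75957873, chr5:75958533-75959099 and chr5:75973085-75975159. The widest was chr5:75928604-75940905 in KO CMs. *Flt1*, the gene for VEGF receptor 1, had 22125 bp (12.7%) and 23377 bp (13.4%). Its control-only regions were at chr5:147574306-147575174, chr5:147575612-147576556, chr5:147640702-147642240 and chr5:147715074-147715708. KO-only regions of *Flt1* were at chr5:147615210-147617113, over an inner transcript start, and chr5:147637776-147638406, and the widest region was chr5:147643436-147648537 in control CMs. The record start of *Flt1* was covered in KO CMs alone, by the region chr5:147725758-147727433. The control region that overlaps it, chr5:147723396-147725877, ends inside the gene.

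*Tek* and *Tie1* encode the receptor pair of the angiopoietin pathway. *Tek* had 37756 bp (25.9%) in control and 36176 bp (24.8%) in KO CMs, with control-only regions at chr4:94789809-94790869, chr4:94827818-94828464 and chr4:94857557-94858310. The widest region of *Tek*, chr4:94737177-94752357 in control CMs, began upstream of the start. *Tie1* had 2498 bp (8.65%) and 1645 bp (5.70%), a 1.52-fold difference that came from the control-only intron region at chr4:118486814-118487684. At its start the lists held regions of nearly equal width, 1627 bp and 1645 bp, the wider being chr4:118488621-118490265 in KO CMs. With that narrow intron region left out by a minimum width of 1000 bp, the log2 ratio of *Tie1* changed from -0.60 to 0.016. *Eng*, the gene for the TGF-beta co-receptor endoglin, had no region found in 1 list only and was covered over 35.5% in control and 41.2% in KO CMs.

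Among the endothelial transcription factors, *Fli1* and *Erg* had most of their regions in introns. *Fli1*, an ETS factor, had 40130 bp (30.7%) in control and 40654 bp (31.1%) in KO CMs, nearly equal lengths from 18 and 8 regions. Its 8 control-only regions lay in introns at chr9:32443732-32445186, chr9:32452163-32453643, chr9:32468617-32470578, chr9:32474992-32476076, chr9:32480310-32481240, chr9:32487963-32490374, chr9:32491145-32491706 and chr9:32513927-32515306. The 3 KO-only regions of *Fli1*, also intronic, were at chr9:32430537-32431928, chr9:32466249-32467522 and chr9:32498295-32500920. In the map of single loci most of them lie beyond the block of shared regions that starts at the promoter, and KO CMs have fewer and wider regions in that block, the widest being chr9:32518041-32530345. *Erg*, another ETS factor, had 34038 bp (14.3%) and 45764 bp (19.3%). Its control-only regions were at chr16:95380603-95381727, chr16:95419971-95420793 and chr16:95466578-95467244, and its KO-only regions at chr16:95422495-95423680, chr16:95424596-95425483 and chr16:95435512-95436805. The widest region of *Erg*, chr16:95444690-95462693 in KO CMs, was also the widest of all endothelial regions at 18004 bp and lay over an inner transcript start.

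*Sox17* and *Sox18* encode SOX factors of arterial and lymphatic development. *Sox17* had no region found in 1 list only, and its share was 37.3% in control and 53.0% in KO CMs, where a single region of 8701 bp took the place of 2 regions. *Sox18* had 4307 bp (36.5%) and 5824 bp (49.3%), with a control-only region at chr2:181668330-181670795 and its widest region, chr2:181657819-181666305 in KO CMs, reaching in from downstream. Part of the KO cover at *Sox18* came from a region over the promoter of *Tcea2*, and without regions over other promoters its log2 ratio of 0.44 became -0.17. With the whole length of each region it became 2.01.

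**Figure D5:**
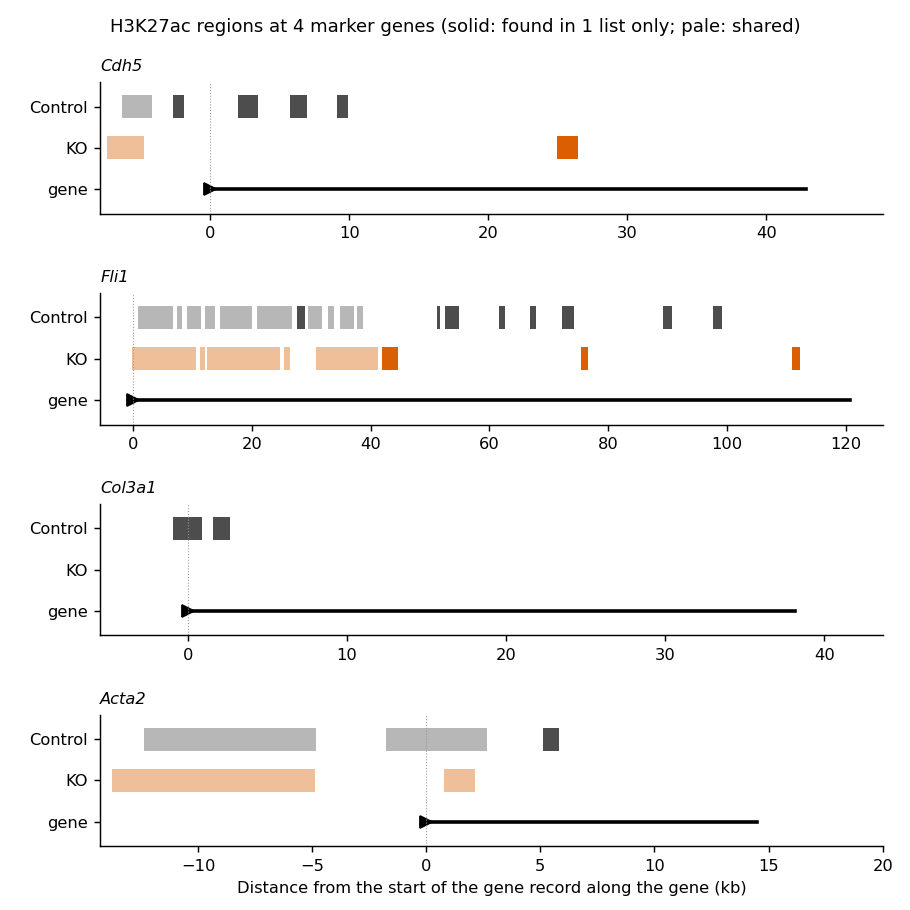
H3K27ac regions at 4 marker genes by distance (kb) from the start of the gene record along the gene, in control (grey) and KO (orange) CMs, solid where found in 1 list only and pale where shared. *Cdh5* has 4 control-only regions and 1 KO-only region, *Fli1* has 8 and 3, *Col3a1* has 2 and 0, and *Acta2* has 1 and 0.

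The promoters of the members were read in the RefSeq promoter table (GRCm38.p6), as the 250 bases before each listed start. It held 21 of the 36 members with 28 windows, and not *Pecam1*, *Cdh5*, *Esam*, *Sox17*, *Sox18*, *Fli1*, *Vwf*, *Col1a1*, *Dcn*, *Lum*, *Pdgfrb*, *Myh11*, *Tagln*, *Csf1r* and *Adgre1*. Each window lay either wholly inside or wholly outside a region. In control CMs 11 of 15 endothelial windows, 1 of 6 fibroblast windows, 2 of 3 mural windows and 0 of 4 immune windows lay inside, and in KO CMs 12, 0, 1 and 0 did. Inside in the KO list alone were the window of *Flt1* and that of *Egfl7* at chr2:26583615-26583864. Inside in the control list alone were those of *Col3a1*, *Acta2* and *Egfl7* at chr2:26586386-26586635. Only the region over the *Col3a1* window was itself control-only. The regions over the other windows named here overlap a region of the other list that does not reach the window.

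Words bound by factors of these cell classes were searched on both strands of the same windows. The ETS word AGGAAGT, read by factors such as ERG and FLI1, was found in 6 of 28 member windows (21.4%), of which 4 were endothelial and 2 were those of *Ptprc*, beside 7.69% of all 32851 promoters in the table. The windows of *Ptprc* overlap and share 1 match, which is thus counted in both, and they were the only windows with an ETS word that lay outside the regions of both lists. The PU.1 word GAGGAAGT, which contains the ETS word from the second letter on, was in 1 window, that of *Eng* (3.57% beside 2.44%). The GATA word AGATAA was in 4 windows (14.3% beside 9.99%), and the CArG box and MEF2 box in 0 windows (beside 1.47% and 0.508%). A match describes the letters and does not show that a factor was bound.

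The windows printed here are examples. They are both windows inside KO regions alone, 1 of the 3 inside control regions alone, an endothelial window inside regions of both lists and an immune window outside them. The windows of *Acta2* and of *Egfl7* at chr2:26586386-26586635, inside control regions alone and without an ETS word, are not printed. Sequences are given 5' to 3' on the strand of the gene, with the ETS word AGGAAGT or its reverse complement in capitals (at *Eng* 1 further capital completes the PU.1 word). *Eng*, chr2:32646345-32646594 on the plus strand, was inside regions of both lists. *Flt1*, chr5:147726012-147726261 on the minus strand, and *Egfl7*, chr2:26583615-26583864 on the plus strand, were inside KO regions alone. *Col3a1*, chr1:45311288-45311537 on the plus strand, was inside a control region alone and has no match. *Ptprc*, chr1:138175306-138175555 on the minus strand, has 2 matches, overlaps the other listed window of *Ptprc* and was outside the regions of both lists.
Eng: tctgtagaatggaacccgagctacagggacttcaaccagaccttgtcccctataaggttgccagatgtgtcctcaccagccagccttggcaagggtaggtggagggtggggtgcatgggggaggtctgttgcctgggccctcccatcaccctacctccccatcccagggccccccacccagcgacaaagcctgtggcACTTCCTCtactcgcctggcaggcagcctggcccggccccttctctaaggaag
Flt1: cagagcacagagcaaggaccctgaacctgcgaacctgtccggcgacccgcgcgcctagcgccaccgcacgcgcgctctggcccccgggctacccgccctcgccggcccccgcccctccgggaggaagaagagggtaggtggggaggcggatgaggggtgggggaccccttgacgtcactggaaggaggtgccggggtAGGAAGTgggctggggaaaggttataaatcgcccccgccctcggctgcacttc
Egfl7: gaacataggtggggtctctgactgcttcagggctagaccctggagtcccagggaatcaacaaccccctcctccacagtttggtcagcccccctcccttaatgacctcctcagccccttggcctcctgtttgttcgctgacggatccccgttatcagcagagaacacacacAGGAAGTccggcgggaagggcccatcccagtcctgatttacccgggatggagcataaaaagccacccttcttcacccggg
Col3a1: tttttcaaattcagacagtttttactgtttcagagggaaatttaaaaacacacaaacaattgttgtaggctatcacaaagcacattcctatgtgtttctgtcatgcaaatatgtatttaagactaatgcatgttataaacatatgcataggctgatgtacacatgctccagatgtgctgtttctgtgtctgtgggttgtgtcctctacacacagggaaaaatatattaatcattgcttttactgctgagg
Ptprc: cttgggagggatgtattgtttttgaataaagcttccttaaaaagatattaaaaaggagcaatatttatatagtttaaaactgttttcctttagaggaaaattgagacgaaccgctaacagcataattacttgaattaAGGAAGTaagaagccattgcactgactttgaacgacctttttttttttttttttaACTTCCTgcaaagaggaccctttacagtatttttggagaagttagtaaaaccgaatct

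The printed windows also differ in base composition. *Flt1* has 23 CpG pairs and a GC content of 70.4%, while *Col3a1* has 0 CpG pairs and 35.2% and *Ptprc* has 4 and 31.6%. Over the members the median was 4 CpG pairs, against 6 over all promoters of the table, and the median GC content 53.6%, against 52.4%.

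Across whole regions, endothelial members held 0.364 ETS words per kb of region in control and 0.350 in KO CMs. All regions of the lists held 0.295 and 0.291 per kb, and regions at CM genes 0.262 and 0.254. The 10 other endothelial genes were near the level of all regions, at 0.291 and 0.309 per kb, and the few fibroblast regions held 0.926 and 1.84 per kb from 5 matches in each list, so a high value was not particular to the endothelial members. The regions found in 1 list only at endothelial genes held 0.481 ETS words per kb in control and 0.523 in KO CMs, from 19 and 11 matches, against 0.320 and 0.303 over all regions found in 1 list only. The GATA word was less frequent, with 0.510 and 0.566 per kb at endothelial genes against 0.661 and 0.644 over all regions. This did not hold for the endothelial KO-only regions, where 20 matches gave 0.952 GATA words per kb, against 0.661 over all KO-only regions. At mural genes the CArG box, the word of serum response factor, was found at 0.157 per kb in control and 0.138 in KO CMs, from 4 and 3 matches, against 0.0561 and 0.0549 over all regions.

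The fibroblast genes were almost free of the mark. *Col3a1*, the gene for the collagen chain of type III fibres, had the highest fibroblast share in control CMs, with 2936 bp (6.10%), and 0 bp in KO CMs. Both of its regions were control-only, at chr1:45310644-45312458 over the start, the wider of the pair, and at chr1:45313108-45314228 in an intron. In KO CMs the nearest region lay 160697 bp from a start of *Col3a1*. *Pdgfra*, the gene for the PDGF receptor of fibroblasts, had 796 bp (1.42%) in control and 0 bp in KO CMs, all from the control-only region chr5:75154135-75154930 near an annotated start that is not the RefSeq start. It was left with no region at all when equal numbers of the widest regions were kept, since control regions under 894 bp then drop out.

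*Col1a1*, the gene for the main chain of type I collagen, had the highest fibroblast share in KO CMs, although its cover was not at its start. Regions covered 764 bp (2.85%) of its window in control and 834 bp (3.11%) in KO CMs. The log2 ratio of 0.13 became 0.81 with 20 kb on each side and 0.70 with whole regions. The cover came from the edge of a shared downstream region, widest in KO CMs at chr11:94957209-94959926, whose nearest gene start is that of *Hils1*. *Col1a2*, *Dcn*, *Postn*, *Tcf21* and *Lum*, which encode a second chain of type I collagen, the matrix proteins decorin, periostin and lumican, and a transcription factor of epicardial fibroblasts, had 0 bp in both lists. The nearest region to a start of these 5 genes was 42178 bp away, at *Postn* in KO CMs.

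Among the 6 mural genes, *Acta2*, *Tagln*, *Myh11* and *Cspg4* had regions in both lists. *Acta2*, which encodes smooth muscle alpha-actin, had the highest mural share in control CMs, 5289 bp (21.6%), and 1472 bp (6.01%) in KO CMs, a 3.59-fold difference. A region of 4432 bp over its start in control CMs stood against one of 1365 bp in KO CMs that left the record start uncovered. An intron region at chr19:34249767-34250466 was control-only. The widest region, chr19:34260484-34269383 in KO CMs, lies upstream and mostly outside the window. Counting it reduced the difference, since the log2 ratio of -1.85 became -0.30 both with 20 kb on each side and with whole regions. The *Acta2* promoter window at chr19:34255374-34255623 was inside the control region alone.

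*Tagln*, the gene for transgelin, had 1897 bp (11.5%) in control and 1217 bp (7.40%) in KO CMs, the highest mural share in the KO list and a 1.56-fold difference. None of its regions was at a start. The control-only region was at chr9:45931756-45932753 and the widest region at chr9:45937755-45938971 in KO CMs. *Myh11*, the smooth muscle myosin heavy chain gene, had 7526 bp (7.04%) and 7581 bp (7.10%), with control-only regions at chr16:14256217-14257551 and chr16:14258592-14259221 and a KO-only region at chr16:14264294-14265634. The widest region at *Myh11*, chr16:14192688-14196096 in KO CMs, lay at the far end, where the nearest start is that of *Nde1*. *Cspg4*, which encodes the pericyte proteoglycan NG2, had 3486 bp (7.77%) and 2707 bp (6.04%). Its control-only region was at chr9:56867789-56868501, and its widest region, chr9:56864305-56865909 in KO CMs, also overlaps the promoter of *Odf3l1*. The pericyte markers *Pdgfrb* and *Rgs5* had 0 bp in both lists.

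No immune gene had a region at its own start in either list. *Ptprc*, the gene for the leukocyte antigen CD45, had 0 bp in both, and its nearest regions were 15811 bp from a start in control and 68181 bp in KO CMs. *Csf1r*, the receptor gene of the macrophage growth factor CSF1, and *Adgre1*, which encodes the macrophage antigen F4/80, also had 0 bp in both lists. For *Adgre1* the nearest regions lay 80840 bp and 81307 bp from a start.

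The remaining immune genes, *Cd68* and *Cx3cr1*, had regions in their windows, some of which overlap promoters of other genes. *Cd68*, which encodes a lysosomal protein of macrophages, had 1173 bp (9.82%) in control and 4128 bp (34.6%) in KO CMs, 3.52-fold more and the highest immune share in the KO list. Its widest region, chr11:69660972-69664515 in KO CMs, overlaps the promoter of *Mpdu1*, and the other one overlaps that of *Eif4a1*. With such regions left out the cover was 968 bp in control and 0 bp in KO CMs. The log2 ratio of 1.82 was 0.81 with 20 kb on each side, 1.09 with whole regions and 4.33 with regions at least 1000 bp wide. *Cx3cr1*, the fractalkine receptor gene of macrophages, has a window of 178264 bp that contains other genes. It had the highest immune share in control CMs, with 26824 bp (15.0%) against 33590 bp (18.8%) in KO CMs. Its control-only regions were at chr9:119936418-119937692 and chr9:119972251-119972914, its KO-only region was at chr9:119969769-119971547, and its widest region was chr9:119975769-119985613 in KO CMs. Regions in this window overlapped the promoters of *Csrnp1*, *Gorasp1*, *Ttc21a* and *Xirp1*, a gene of striated muscle. With such regions left out 12169 bp in control and 16508 bp in KO CMs were still covered. Every region in this window, like every region at *Cd68*, lay nearest to the protein-coding start of another gene. The nearest region to a *Cx3cr1* start was 39754 bp away in control CMs.

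Further genes of the same classes again had start regions most often among endothelial genes and at no immune gene. These genes, too, were chosen with earlier results of these data known. Among 10 other endothelial genes, 9 had a region at their start in both lists, with *Plvap* as the exception and *Clec14a* the most covered at 57.4% in control and 72.1% in KO CMs. Their median share was 28.3% and 30.2%, close to the 30.7% and 31.1% of the 17 endothelial markers. Among 10 other fibroblast genes, 4 had a start region in control and 3 in KO CMs, and *Meox1* was the most covered at 26.3% and 51.3%. *Dpt*, *Loxl1*, *Col5a1*, *Col6a3*, *Thy1* and *Mfap5* had none in either list, and *Fap* had one in control CMs alone. Of 6 other mural genes, *Mcam* had a start region in both lists and the highest share (41.4% and 42.8%), *Kcnj8* had one in KO CMs alone, and *Notch3*, *Cnn1*, *Higd1b* and *Vtn* had none. Other immune genes lacked a start region in both lists, among them *Spi1*, *C1qa*, *C1qb*, *Lyz2*, *Mrc1*, *Itgam*, *Cd163*, *Cd3e* and *Tyrobp*. The most covered of them was *Spi1*, at 12.4% in each list, where regions overlap the promoter of the CM gene *Mybpc3*.

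Markers of rarer heart cells and of other organs were read in the same way for comparison. Among genes of mesothelium, adipocytes, lymphatic vessels and further cells, *Wt1* and *Prox1* had a start region in both lists, with *Prox1* the most covered at 38.3% and 31.2%. *Sox10*, *Upk3b*, *Msln*, *Adipoq*, *Plin1* and *Lyve1* had none. Of 15 genes of other organs, *Ttr* had a start region in both lists and *Vil1* in KO CMs alone. The highest shares among them were 30.5% at *Ttr* in control and 29.8% at *Sftpc* in KO CMs, the latter from regions that include the promoter of *Bmp1*. The 13 genes without a start region in either list were *Sftpc*, *Alb*, *Apoa1*, *Neurod1*, *Snap25*, *Gfap*, *Olig2*, *Ins2*, *Krt5*, *Krt14*, *Cdx2*, *Pax6* and *Umod*. With 5 immune markers, a count of 0 cannot be set apart from the 1 in control and 2 in KO CMs of the 15 genes of other organs.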

How the data were processed

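H3K27ac was measured by CUT&RUN in CMs of 2 genotypes, with 3 H3K27ac and 3 IgG replicates each, grouped from their labels. Bowtie2 2.4.2 served the authors for alignment to GRCm38 and SAMtools for the removal of duplicates. HOMER 4.11.1, in its mode for histone marks, then called regions in every replicate with IgG as background, and those present in 2 or more of 3 replicates were merged. What was deposited per region is where it starts and where it ends (position in bp). Their score is constant, per the deposited files, and was not used. They hold no read counts, so the depth of each library is unknown and the precision given is that of counts of regions.

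Autosomes 1 to 19 and the sex chromosomes were used, so 21 control and 14 KO regions on other sequences were dropped. Covered length, its log2 ratio and region counts were computed in windows of the gene body with 5000 bp on each side (GENCODE M21). A region was at a start if it overlapped -1000 to +100 bp of any annotated transcript start, and found in 1 list only if it overlapped no region of the other list by 1 bp or more. A gene was called at a 1.5-fold difference. Shares of regions have 95% Wilson intervals, for counting error only. No test across samples was possible with 1 list per genotype. Genes were named with values if they had the highest or lowest covered share of their class, a region found in 1 list only, no region in a list, or a 1.5-fold difference. The other members are given by count or share, and of the comparison lists most genes without a start region and the highest shares are given. Regions are named by the coordinates of those found in 1 list only and of the widest. Some further values of named genes, such as the regions at the start of Flt1, were chosen after they were seen.

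Words were searched on both strands in RefSeq promoter windows (GRCm38.p6) and in region sequences. Alternatives changed the flanks, the width limit, the overlap rule, the promoter limits, the treatment of regions over other promoters, the assignment to genes and the number of regions per list. The steps were tested on simulated data. The members and the comparison lists were chosen with earlier results of these data known. The software was Python 3.11.15 with scipy 1.17.1, numpy 2.4.6 and, for plots, matplotlib 3.10.9.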

Additional observations from a re-analysis of the deposited data

How the results depend on the processing

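Of 299 alternatives, 162 of 185 for covered length, 59 of 90 for regions found in 1 list only and 21 of 24 for start counts shifted a ratio or count by no more than 1.5-fold or kept a share within its 95% interval. Such a shift can still cross 0 or the threshold, as for mural genes (-0.49 to 0.072), *Tagln* (-0.64 to -0.077, both with 20 kb on each side) and *Cspg4* (-0.36 to -0.86 without regions over other promoters). The fibroblast log2 ratio of -2.43 became -0.59 with 20 kb on each side and -0.99 with whole regions. Members at least 1.5-fold longer in KO CMs went from 2 to 4 with regions at least 1000 bp wide, with equal numbers of the widest regions and with whole regions, and to 1 without regions over other promoters. Those at least 1.5-fold shorter went from 4 to 0 with 20 kb flanks, 2 with regions at least 1000 bp wide and 5 without regions over other promoters. The log2 ratio of *Tie1* turned from -0.60 to 0.016 both with regions at least 1000 bp wide and with equal numbers, which drop its narrow control-only region. Endothelial control-only regions were 70% with a reciprocal overlap of 50%, 19.8% with regions at least 1000 bp wide and 20% with equal numbers, from 30.9%. Endothelial KO-only regions were 34.6% with 50% of the region covered and 56.4% with the reciprocal rule, from 17.9%. By nearest protein-coding start the endothelial counts went from 34 to 59 control-only and from 14 to 23 KO-only regions, with shares of 35.3% and 19.5%. Fibroblast control-only regions went from 3 to 8 by nearest protein-coding start. Mural control-only regions went from 5 to 1 with regions at least 1000 bp wide and 2 with equal numbers. Mural KO-only regions went from 1 to 2 with the reciprocal rule, 3 with regions at least 1000 bp wide, 2 with equal numbers and 2 with 20 kb flanks. Immune control-only regions went from 2 to 5 with the reciprocal rule, 6 by nearest start, and 1 each if gaps up to 1000 bp were bridged, with regions at least 1000 bp wide, equal numbers, or without regions over other promoters. Immune KO-only regions went from 1 to 2 with 50% of the region covered, 3 with the reciprocal rule, 0 with gaps bridged, 3 with regions at least 1000 bp wide, 2 with equal numbers and 4 by nearest start. Endothelial start regions in control CMs went from 17 to 11 with the start of the gene record only, and fibroblast ones from 2 to 1 with that start and 1 with equal numbers. Apart from *Tie1*, the cause was not tested.

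No paired analysis was possible because each genotype has 1 merged list and the labels pair no mice. Depth, signal height and spread between mice are not in the lists. A difference in covered length or in the presence of a region can therefore not be told apart from a difference in depth or in region calling between the libraries, and a change of signal within a shared region is not seen. Counts in the fibroblast, mural and immune classes are small, so that 1 region can move a share or a ratio. Windows can hold promoters of other genes, as at *Cd68* and *Cx3cr1*. Annotated starts differ in how well they are supported.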
